A study of Arabidopsis thaliana with 6 samples.

Results

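The anti-Flag precipitation of wild-type (WT) Arabidopsis thaliana seedlings was compared with WT input, to describe what the antibody recovers when no Flag-tagged ASI1 is there to be precipitated. The comparison covers all 4654 genes of the WT table, of the 6351 genes in either table of the series, and 3 of its 6 libraries: 2 WT RIP libraries and 1 WT input. All libraries came from whole Col-0 seedlings aged 14 d, grown at 22 °C with 16 h of light and 8 h of dark on medium with 1% sucrose. The seedlings were crosslinked with 0.5% formaldehyde, and the RIP libraries were made with an anti-Flag antibody (Sigma F1804). The other 3 libraries, an ASI1 line treated alike, give 2 ASI1 RIP libraries and 1 ASI1 input. A Flag tag on ASI1 in that line, and its absence in WT, were inferred from the antibody used and from the names of the groups. The labels give neither the promoter of the transgene nor the number of lines. Whether replicates were grown separately is not stated either, so p-values reflect only differences among these samples, which may be technical.

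RNA immunoprecipitation (RIP) with sequencing recovers a protein with its bound RNA through an antibody, and sequences that RNA. Without the tag, the antibody and beads still retain some RNA, through surfaces, abundant ribonucleoproteins and incomplete washing, and this untagged control is the background against which a tagged protein is read. Input is RNA taken before the precipitation and shows what was there to be retained.

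Ribosomal RNA dominated the listed counts, so the levels below are CPM values of the counts outside the 4 rRNA genes AT3G41768, AT2G01010, AT2G01020 and AT3G41979, written CPM outside rRNA. They are not divided by transcript length, so they compare a gene between libraries, and orders of genes are orders of read counts. These genes were left out of the scaling because they held nearly all input counts. The other 4650 genes held 61644 input counts (0.966% of its listed counts), 23304 counts of RIP replicate 1 (19.4%) and 103549 of RIP replicate 2 (19.7%). With all listed counts as the scale, RIP levels would therefore sit higher against the input, and the fitted median log2 fold of all genes would be 2.81 instead of -1.39. The detection floor, a count of 3, corresponded to 48.7 CPM outside rRNA in the input, to 129 in replicate 1 and to 29.0 in replicate 2. Of the 17 tissue markers looked up, 7 were listed. They were the 5 leaf mesophyll markers, the phloem marker SUC2 and the guard cell marker FMA (FAMA), while no root hair, root meristem, endodermis or seed storage marker was listed. In whole seedlings fewer cells of a type and less RNA per cell cannot be told apart.

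Sequences are shown for 6 of the 15 genes of highest mean RIP level, all above the input in both RIP libraries. U1.5 is shown as the only snRNA, and the other 5 were chosen, after their values were seen, for their runs of proline codons, so that shared feature comes from the choice. They were read from RefSeq TAIR10.1; the build the authors used is not given in the sources used here. U1.5 is printed whole as DNA (chr1:2538074-2538238, minus strand), with its first 8 bases, known to pair with the 5′ splice site, in capitals. The others are the 120 coding bases, in frame, that hold most proline codons, with those codons in capitals. These windows lie at chr2:6918627-6918746 (AT2G15880, minus), chr3:20203459-20203578 (AT3G54580, minus), chr4:7759921-7760040 (LRX3, plus), chr4:10276449-10276568 (AT4G18670, minus) and chr1:26626730-26626849 (AT1G70620, plus).
U1.5: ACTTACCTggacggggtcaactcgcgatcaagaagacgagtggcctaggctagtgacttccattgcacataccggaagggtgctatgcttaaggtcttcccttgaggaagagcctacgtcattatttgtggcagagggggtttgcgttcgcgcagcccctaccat
AT2G15880: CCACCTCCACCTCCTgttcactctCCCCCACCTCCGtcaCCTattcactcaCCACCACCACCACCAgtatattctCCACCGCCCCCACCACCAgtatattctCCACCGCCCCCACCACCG
AT3G54580: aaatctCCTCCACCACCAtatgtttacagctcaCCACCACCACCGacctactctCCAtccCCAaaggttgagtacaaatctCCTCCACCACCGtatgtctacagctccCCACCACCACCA
LRX3: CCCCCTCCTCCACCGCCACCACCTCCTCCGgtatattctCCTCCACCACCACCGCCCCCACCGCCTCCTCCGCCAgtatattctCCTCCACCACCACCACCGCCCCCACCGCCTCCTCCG
AT4G18670: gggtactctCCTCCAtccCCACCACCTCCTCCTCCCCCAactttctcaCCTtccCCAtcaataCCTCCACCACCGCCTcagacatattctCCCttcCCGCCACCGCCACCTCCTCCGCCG
AT1G70620: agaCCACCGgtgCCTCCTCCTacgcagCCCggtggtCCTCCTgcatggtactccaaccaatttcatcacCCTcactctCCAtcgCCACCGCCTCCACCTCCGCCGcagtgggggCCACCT
Proline codons take 27 of the 40 codons shown for AT2G15880, 18 for AT3G54580, 34 for LRX3, 25 for AT4G18670 and 19 for AT1G70620. Such repeats recur in other genes of the family, and U1 snRNA has near-identical copies, so how reads were divided among them is uncertain.

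Each WT RIP library covered many genes that the other did not, and few genes were covered in both. A gene counts as covered where it reached 20 counts. The input covered 460 genes, RIP replicate 1 covered 183 and RIP replicate 2 covered 867, and 61 genes (1.31% of 4650) were covered in both RIP libraries. These 61 genes are 33.3% of those covered in replicate 1, while 867 of all 4650 genes were covered in replicate 2. They are 7.04% of those covered in replicate 2, while 183 of all 4650 were covered in replicate 1. Genes covered in a RIP library were thus covered in the other more often than all genes were. Of the genes covered in replicate 1, 65 (35.5%) had under 2 counts in replicate 2, although replicate 2 was the deeper library. In the other direction, 522 of the genes covered in replicate 2 (60.2%) had under 2 counts in replicate 1. Such low counts were common over all 4650 genes: 13.2% had no count and 33.0% had 1 read in replicate 2. In replicate 1 these shares were 36.9% and 37.7%. Low counts in the other replicate were thus less frequent among covered genes than among all genes. Of the 460 genes covered in the input, 54 (11.7%) were covered in replicate 1 and 195 (42.4%) in replicate 2.

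**Figure D1:**
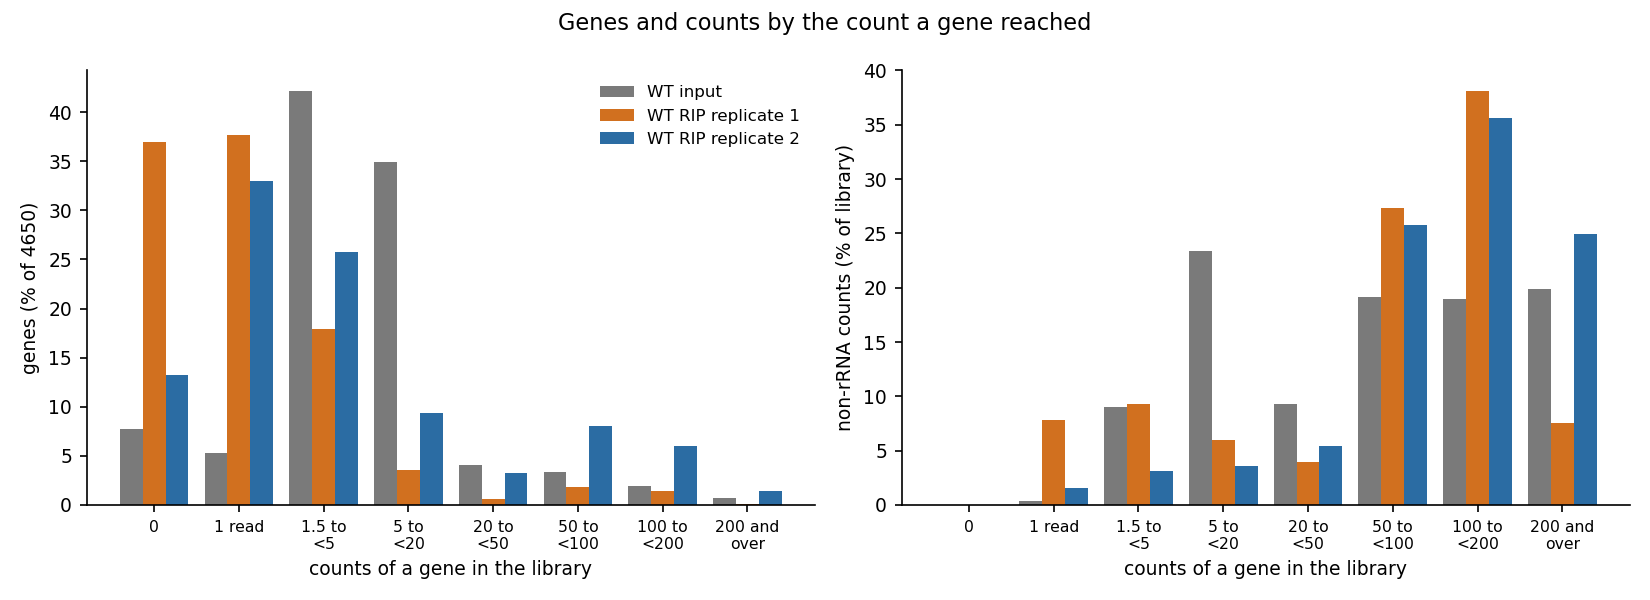
Genes (left, % of the 4650 genes outside rRNA) and non-rRNA counts (right, % of the library) by the count a gene reached, for WT input (grey), RIP replicate 1 (orange) and RIP replicate 2 (blue). In both RIP libraries genes of 50 counts and over hold most of the counts, while 1718 genes of replicate 1 and 614 of replicate 2 are at 0.

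The precipitates had a gap in their counts that the input lacked. In RIP replicate 1, 1718 genes had no count and 1751 had 1 read, while 26 genes had 20 to under 50 counts and 84 had 50 to under 100. In replicate 2, 152 genes had 20 to under 50 counts and 373 had 50 to under 100. In the input the order was the reverse, with 187 genes at 20 to under 50 and 154 at 50 to under 100. Covered genes had a median of 87.3 counts in replicate 1 and 82.9 in replicate 2, close to each other although the libraries differed in depth. Genes with 50 to under 200 counts held 27.4% and 38.1% of replicate 1 in the 2 bins of that range, and 25.7% and 35.6% of replicate 2. The plot of genes by count bin shows both libraries with a second rise above 50 counts.

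AT2G15880 and AT3G54580, both with many proline codons, had the highest mean levels among genes covered in both WT RIP libraries. AT2G15880, annotated as a leucine-rich repeat family protein, has 25.5% proline codons and took the most counts outside rRNA in both RIP libraries. It had 139 counts in the input, 649 in replicate 1 and 2404 in replicate 2, or 2256, 27868 and 23216 CPM outside rRNA. Both RIP libraries lay above the input, by 12.4-fold in replicate 1 (95% exact interval 10.3 to 14.9) and 10.3-fold in replicate 2 (8.68 to 12.3). These intervals, and those below, cover counting error only and treat each read as an independent count. The sources mention no molecular identifiers, so amplified copies cannot be told apart and the intervals may be too narrow. AT4G18670, of the same annotation, had 435 CPM outside rRNA in the input, 4816 in replicate 1 and 5089 in replicate 2. It was 11-fold (7.16 to 17.4) and 11.6-fold (7.89 to 17.8) above the input, so its replicates differed little.

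Other extensin-type genes differed more between the replicates, and several were high in a single library. LRX3, a leucine-rich repeat extensin of the cell wall, had 1922 CPM outside rRNA in the input, 8739 in replicate 1 and 4116 in replicate 2. The extensin-like AT3G54580, with 38.3% proline codons, had 3944, 16632 and 6164. In both genes replicate 1 stood well above replicate 2, and AT3G54580 was only 1.56-fold above the input (1.35 to 1.82) in replicate 2. EXT3, a structural extensin that forms networks in the wall, had 3242 CPM outside rRNA in the input, 223 in replicate 1 and 6224 in replicate 2, so its replicates lay on opposite sides of the input. EXT4, another extensin, stood at 368, 4637 and 20.3, and the extensin-like AT3G28550 at 810, 0 and 2170. The arabinogalactan protein gene AGP9 and the proline-rich protein gene PRP4 lay above the input in both libraries: AGP9 at 435, 3300 and 1744, and PRP4 at 735, 1784 and 1146. EXT3, EXT4, AT3G28550, AGP9 and PRP4 were chosen after their values were seen.

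**Figure D2:**
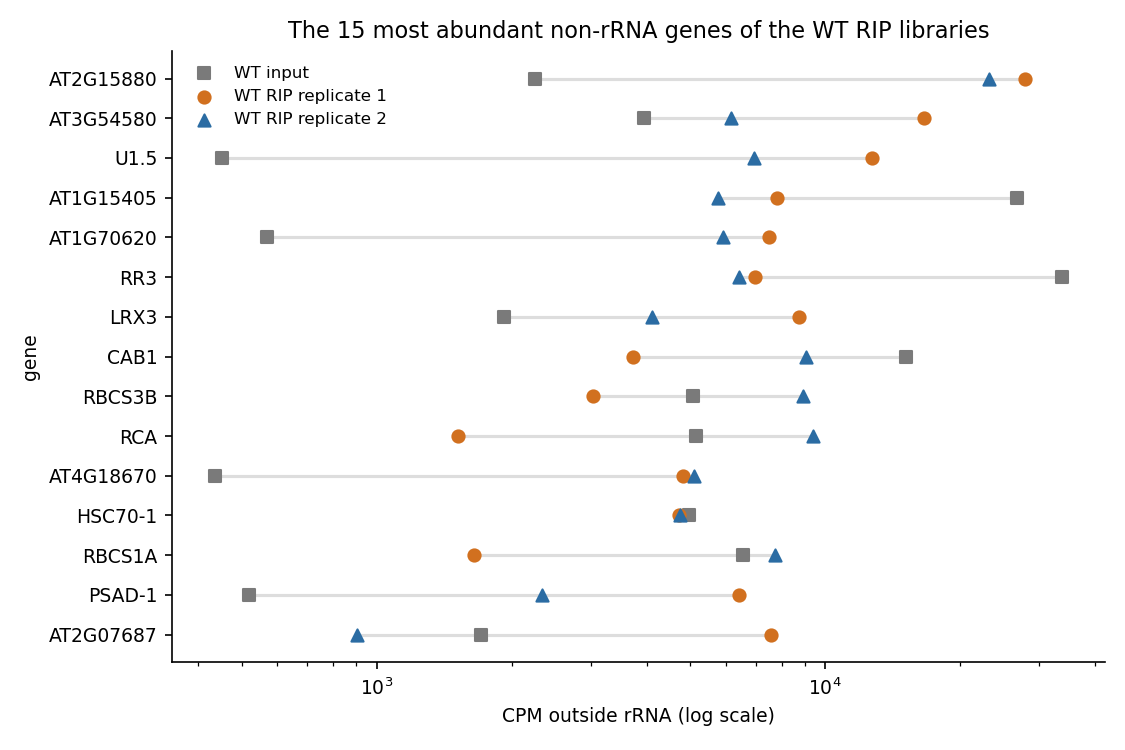
CPM outside rRNA (log scale) of the 15 genes of highest mean level in the WT RIP libraries, of those covered in both, in WT input (square), RIP replicate 1 (circle) and RIP replicate 2 (triangle). AT2G15880, U1.5, AT1G70620 and AT4G18670 lie about 10-fold or more above the input in both RIP libraries. Genes below the input in both include RR3, AT1G15405 and CAB1.

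The only snRNA gene listed, U1.5, was also recovered in both precipitates. U1 snRNA is the RNA core of the particle that recognises 5′ splice sites. U1.5 had 27.8 counts in the input, 297 in replicate 1 and 716 in replicate 2, or 451, 12724 and 6918 CPM outside rRNA. It was 28.1-fold (19.0 to 43.0) above the input in replicate 1 and 15.2-fold (10.4 to 23.1) in replicate 2. The only snoRNA listed, U3D, which guides processing of pre-rRNA, was lower than the input in both: 275 CPM outside rRNA in the input, 0 in replicate 1 and 60.8 in replicate 2. AT1G70620, annotated as a cyclin-like protein and with 12.1% proline codons, had 568, 7475 and 5925 CPM outside rRNA, 13.2-fold (9.1 to 19.5) and 10.4-fold (7.43 to 15.1) above the input.

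Photosynthesis transcripts held a smaller share of replicate 1 than of the input and a slightly larger share of replicate 2. The 46 listed nuclear photosynthesis genes took 8.52% of the non-rRNA counts of the input, 4.13% of replicate 1 and 9.59% of replicate 2. Of these genes 12 were covered in both RIP libraries (26.1%, against 1.31% of all genes), and 27 were covered in the input. CAB1, a chlorophyll-binding antenna protein gene, had 15163 CPM outside rRNA in the input, 3717 in replicate 1 and 9077 in replicate 2, below the input in both. RBCS1A and RBCS3B, small-subunit genes of Rubisco, were below the input in replicate 1 (1650 against 6568, and 3037 against 5080) and above it in replicate 2 (7715 and 8922). RCA, Rubisco activase, showed the same split, at 5148, 1516 and 9408. PSAD-1, a photosystem I subunit, and CA1, the chloroplast carbonic anhydrase, were above the input in both: PSAD-1 at 518, 6421 and 2332, and CA1 at 501, 2720 and 4689. HSC70-1, a constitutive cytosolic chaperone gene, was nearly level in all 3 libraries, at 4964, 4726 and 4745.

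**Figure D3:**
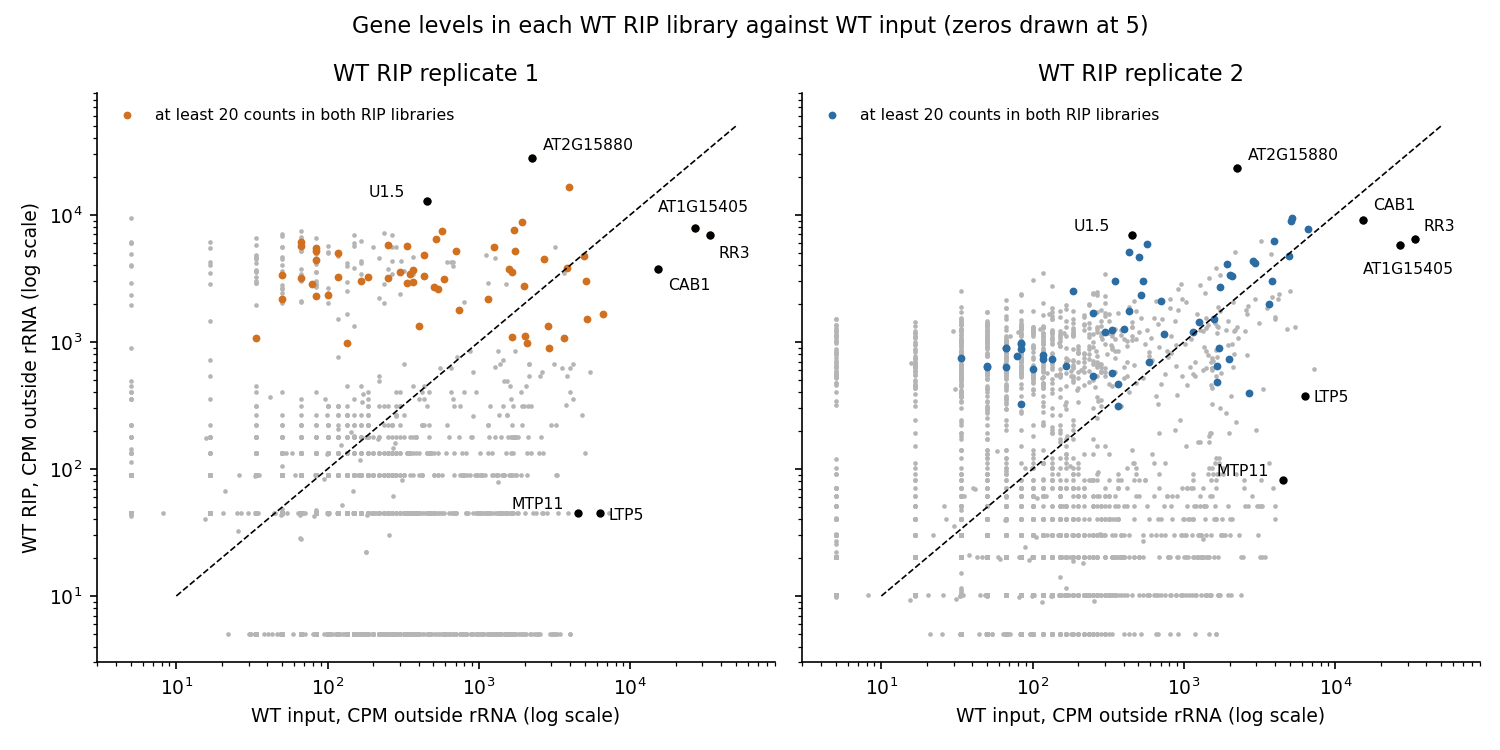
CPM outside rRNA in WT RIP replicate 1 (left) and replicate 2 (right) against WT input, both axes log, each point a gene and zeros drawn at 5. The 61 genes with at least 20 counts in both RIP libraries are the coloured points and, in black with names, AT2G15880, U1.5, RR3, AT1G15405 and CAB1, the dashed line marks equal levels, and AT2G15880 and U1.5 lie far above it in both panels.

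Some of the most abundant input transcripts were much less abundant in the precipitates. RR3, a type-A response regulator of cytokinin signalling, took the most input counts, at 33776 CPM outside rRNA and stood at 6956 in replicate 1 and 6416 in replicate 2. The annotated other RNA AT1G15405 stood at 26780, 7805 and 5761. Both lay below the input in each replicate: the input was 4.86-fold and 5.27-fold higher for RR3, and 3.43-fold and 4.65-fold for AT1G15405. The fitted log2 folds were -2.34 for RR3 and -1.98 for AT1G15405, and with all listed counts as the scale they became 2.00 and 2.36. Relative to the median of all genes they were -0.95 and -0.59.

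Some other input-abundant genes were down to 1 read or fewer in replicate 1 and lower than the input in replicate 2. LTP5, a lipid transfer protein gene, had 388 counts in the input, 1.04 in replicate 1 and 38.8 in replicate 2, and AT2G16586, an uncharacterized protein gene, had 448, 1.04 and 63.0. MTP11, a cation efflux family gene chosen after its values were seen, had 279, 1.04 and 8.40. Among genes covered in the input but at 0 in a RIP library, those highest in the input included AT3G14067, AT4G11860, MIPS3, AT2G07360 and U1-70K. These were at 0 in replicate 1 and at 2.10 to 5.25 counts in replicate 2. AT3G14067, a subtilase family protease gene, had 247 input counts, and the input lay at least 31.2-fold above replicate 1 at the 3-count floor. U1-70K, which encodes a protein of the U1 particle, had 193 input counts, 0 in replicate 1 and 5.25 in replicate 2. In all, 139 of the 460 genes covered in the input were at 0 in replicate 1 and 13 in replicate 2. Of all 4650 genes, 1718 (36.9%) were at 0 in replicate 1 and 614 (13.2%) in replicate 2. Genes covered in the input were thus at 0 less often than all genes.

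Conversely, some of the 361 genes at 0 in the input were covered in a single RIP library, 11 in replicate 1 and 43 in replicate 2. Over all 4650 genes, 183 were covered in replicate 1 and 867 in replicate 2, so genes at 0 in the input were covered less often. The listing rule leaves just those with reads in both RIP libraries among genes at 0 in the input. The 6 with the highest mean RIP level were RS27A, AT4G24175, FKBP12, RPL18AA, AT3G24040 and RAC3, and all 6 were high in replicate 1. The ranking by mean CPM favours that replicate, where 3 counts are 129 CPM outside rRNA, against 29.0 in replicate 2. RS27A, a small-subunit ribosomal protein gene, had 218 counts in replicate 1 and 7.35 in replicate 2, and lay at least 192-fold above the input floor in replicate 1. FKBP12, the immunophilin that binds FK506, had 140 counts in replicate 1 and 2.10 in replicate 2. RAC3, a small GTPase gene, had 93.5 and 1.05. In replicate 2, the transposase gene MUG3 had 87.1 counts, at least 17.3-fold above the input floor, against 1.04 in replicate 1. These values rest on 1 library each.

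Some genes were precipitated in a single replicate only. In replicate 1, AT2G28390, a SAND family gene widely used as a reference gene, had 158 counts against 3.09 in the input and 0 in replicate 2. RPS2, the NLR receptor that recognises a bacterial effector, had 153 against 2.06 and 0, CYP705A8 had 150 against 4.12 and 0, and AT3G16850 had 153 against 5.15 and 1.05. In replicate 2, AT5G14920, a gibberellin-regulated family gene, had 351 counts against 106 in the input and 0 in replicate 1. PIP1B, a plasma membrane aquaporin gene, had 320 against 6.18 and 1.04, TIC, a circadian clock regulator, had 288 against 78.3 and 1.04, and PRR5, a clock pseudo-response regulator, had 258 against 2.06 and 1.04. These genes were picked as the 4 highest per replicate among genes with under 2 counts in the other, so this pattern comes from the choice.

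No gene was called at an adjusted p under 0.05 and a log2 fold of at least 1 in either direction by edgeR's quasi-likelihood test with Benjamini-Hochberg adjustment, over 4650 genes (0% higher and 0% lower). The smallest adjusted p was 0.817 and 0 genes had an unadjusted p under 0.05. The fit has 1 residual degree of freedom and a biological coefficient of variation of 1.17. The fitted log2 fold was 3.50 (SE 3.78) for AT2G15880, 4.43 (SE 4.60) for U1.5 and 3.49 (SE 4.75) for AT4G18670, or 4.89, 5.82 and 4.88 above the median of all genes. DESeq2 on the same counts called 2 genes higher (0.0430%) and 2 lower (0.0430%), with 185 at an unadjusted p under 0.05: AT2G15880 and U1.5 higher, with adjusted p of 3.97e-28 and 0.00418, and RR3 and AT1G15405 lower, with 5.13e-10 and 0.00185. With median-of-ratios size factors DESeq2 kept the call of AT2G15880 alone (adjusted p = 0.0140), and the adjusted p became 0.181 for U1.5 and 0.987 for RR3 and AT1G15405. The input is a single library, so its own spread is unmeasured and both tools assume that it varies like the RIP libraries.

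A rule free of the test, set after the values were seen, counted genes whose level in both RIP libraries was at least 2-fold from the input, with the lower of the levels taken as at least that of 3 counts. By this rule 79 genes (1.70% of 4650) were above the input in both and 342 (7.35%) below it in both. Since 3 counts were 129 CPM outside rRNA in replicate 1, genes with an input level under 2-fold of that could not count as below. Shares of genes below therefore depend on input level, for all genes and for each list given further on. Of the 61 genes covered in both RIP libraries, 33 were above and 2 below, a split that their choice by RIP counts favours. All 61 had counts in the input, and 20 of them under 20 counts. In 22 of the 61 the replicates lay within 2-fold of each other, in 31 replicate 1 was over 2-fold higher and in 8 replicate 2 was. The 61 genes held 27% of the non-rRNA counts of replicate 1, 17.4% of replicate 2 and 14.8% of the input.

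Gene families differed in their share of the precipitate. The 39 listed extensin and proline-rich genes held 2.04% of the non-rRNA counts of the input, 6.55% of replicate 1 and 5.84% of replicate 2. Most were matched by product text or symbol, so the list is mixed. It holds genes with under 15% proline codons, such as ELF3, TIC40 and CHUP1, and leaves out CWLP and AT5G14920, which have more. Few members carried the larger share: 3 of 39 were 2-fold above the input in both libraries and 3 below (7.69% each, against 1.70% and 7.35% of all genes), 5 were covered in both, and 18 were at 0 in replicate 1. The list's median log2 fold was -0.99, against -1.39 over all genes, and 3.16 against 2.81 with all listed counts. The 15 arabinogalactan and fasciclin-like genes, of cell surface proteins, held 0.169%, 1.36% and 0.849%, with a median log2 fold of 2.47 against -1.39 over all genes. Of the 15 genes 2 were above the input in both libraries and 0 below, 8 were at 0 in replicate 1, and FLA18, SOS5 and AGP9 held most of the replicate 1 counts. FLA18 had 83.6 CPM outside rRNA in the input, 4414 in replicate 1 and 973 in replicate 2, and SOS5 stood at 50.1 in the input and 5574 in replicate 1, with 1 read in replicate 2.

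**Figure D4:**
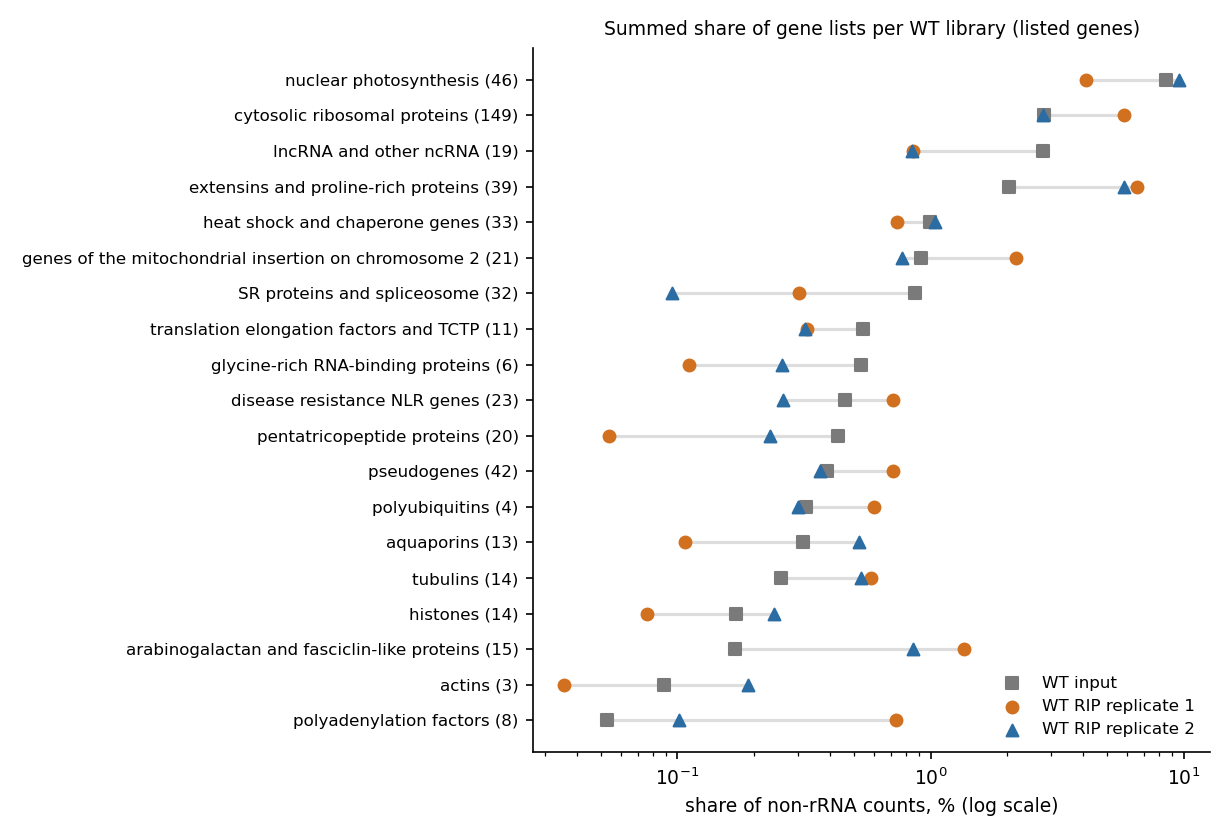
Share of non-rRNA counts (%, log scale) held by the listed members of each gene list, with the number of members in brackets, in WT input (square), RIP replicate 1 (circle) and RIP replicate 2 (triangle). Extensin and proline-rich genes and arabinogalactan and fasciclin-like genes lie above the input in both RIP libraries, and SR and spliceosome genes below it.

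Ribosomal protein genes, which encode the structural proteins of the ribosome, differed in share between the replicates. The 149 listed cytosolic ribosomal protein genes held 2.81% of the input, 5.81% of replicate 1 and 2.78% of replicate 2, and 1 of them, RPS15, named for this count after its values were seen, was covered in both RIP libraries. RS27A and AT5G02450, which encode ribosomal proteins, had the highest mean RIP level in CPM outside rRNA. They had 218 and 166 counts in replicate 1 against 7.35 and 8.40 in replicate 2. By the 2-fold rule 5 of 149 were above and 13 below (3.36% and 8.72%), near the background of all genes.

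Splicing genes held a smaller share of both precipitates than of the input. The 32 SR protein and spliceosome genes held 0.869% of the input, 0.303% of replicate 1 and 0.0953% of replicate 2, with 0 of 32 above and 7 below (21.9% below, against 7.35%). Genes low in the input could not count as below, so this difference also depends on input level. In the input 5 of the 32 were covered, against 460 of 4650. The list's median log2 fold was -2.21 against -1.39 over all genes, and 1.87 against 2.81 with all listed counts. U1-70K held much of the input share, with 193 of the counts there. The 23 listed NLR genes, of intracellular immune receptors, held 0.460% of the input, 0.709% of replicate 1 and 0.262% of replicate 2. Of these 2 were below by the 2-fold rule (8.70%, near the 7.35% of all genes) and 0 above. The 20 pentatricopeptide genes, of organelle RNA-binding proteins, held 0.430%, 0.0535% and 0.231%, with 2 below and 0 above.

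Other lists split or followed single genes. Pseudogenes (42 listed) held 0.389% of the input, 0.711% of replicate 1 and 0.365% of replicate 2. Some of them, AT2G07747 and AT2G07712 included, are also in the list of the mitochondrial insertion given below. AT2G07747 had 84.2 counts in replicate 1 and 0 in replicate 2, and AT2G07712 had 47.8 and 1.05. The 19 lncRNA and other ncRNA genes held 2.79%, 0.854% and 0.841%, most of it AT1G15405. Polyubiquitin UBQ11 had 117 CPM outside rRNA in the input, 5039 in replicate 1 and 730 in replicate 2. Among 8 polyadenylation factors, FY, part of the cleavage and polyadenylation machinery, had 117 counts in replicate 1, 1.03 in replicate 2 and essentially 0 in the input. Histone genes (14) held 0.170%, 0.0758% and 0.241%, and heat shock and chaperone genes (33) held 0.996%, 0.740% and 1.05%. The 21 listed genes of the mitochondrial insertion on chromosome 2 share sequence with the mitochondrial genome, and held 0.921%, 2.18% and 0.773%. Of those, AT2G07687, a cytochrome c oxidase subunit III gene, had 1705, 7580 and 902 CPM outside rRNA, above the input in replicate 1 and below it in replicate 2.

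The known ASI1 targets and complex members with values in WT, 2 of 4 targets and 2 of 7 members, had 0 to 2.08 counts in the WT RIP libraries. The others are not analysed here. RPP7, listed as AT1G58602, had 21.6 counts in the input, 0 in replicate 1 and 1.05 in replicate 2. IBM1 had 3.09, 0 and 1.05, EDM2 had 7.21, 2.08 and 0, and AT4G11560 had 8.24, 1.04 and 1.05. In replicate 1 a count of 0 allows up to 129 CPM outside rRNA, against 351 for RPP7 in the input. For IBM1, at 50.1 in the input, a change was not detectable at this depth.

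Genes with many proline codons were covered more often in every library, input included; the feature was chosen after the values were seen. Among 4587 listed protein-coding genes, 50 had at least 15% proline codons. Of these, 6 (12%) were covered in both RIP libraries, against 0.932% of the 2575 genes with under 5%. They were covered more often in the input (32% against 9.44%), in replicate 1 (18.0% against 3.03%) and in replicate 2 (48.0% against 16.5%). By the 2-fold rule 5 of the 50 were above the input in both libraries, against 36 of 2575. The 50 genes held 2.51% of input counts, 7.64% of replicate 1 and 6.83% of replicate 2, with AT2G15880 giving the largest part of both RIP libraries. Their median log2 fold was 0.18, and 0.04 with genes at 0 in the input set to their bound.

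**Figure D5:**
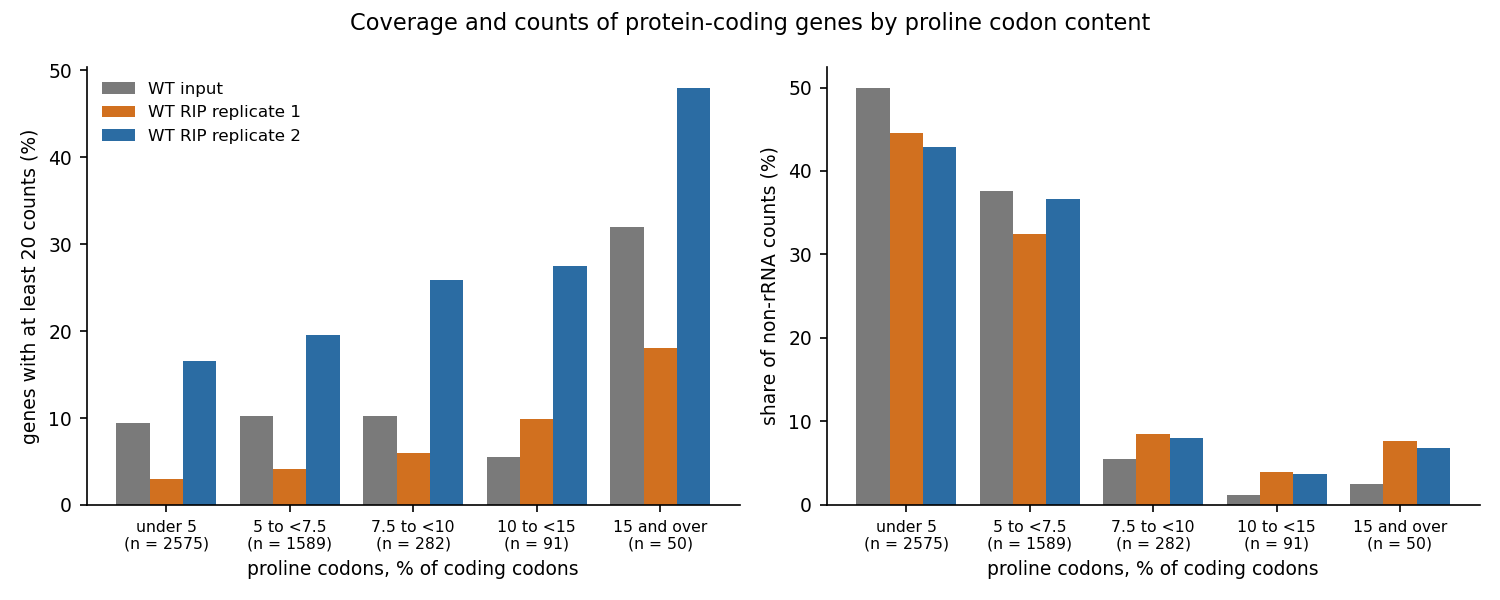
Left, the percentage of protein-coding genes with at least 20 counts, and right, the share of non-rRNA counts, by proline codons as a percentage of coding codons, in WT input, RIP replicate 1 and RIP replicate 2. Genes with 15% and over are covered most often in every library, input included, and hold a larger share of both RIP libraries than of the input.

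Genes covered in both RIP libraries also differed in structure, given as medians without a test. The 59 protein-coding ones had a median of 3 exons, against 5 for all 4587 protein-coding genes, and 18.6% against 10.2% had a single exon. Their median GC content was 43.9% against 42.1%, transcript length 1977 against 1878 bases, and longest intron 208 against 294 bases. Across 1230 protein-coding genes covered in at least 1 library, the log2 fold had a Spearman rho of -0.88 with the input level, which enters the fold itself, and between -0.10 and 0.08 with length, exon number, intron length, GC and proline content. Between libraries, rho of the levels was 0.10 for the RIP replicates across 4650 genes, 0.07 for input and replicate 1 and 0.27 for input and replicate 2. Over the 1957 genes above 0 in all 3 libraries these were 0.34, 0.33 and 0.38, and over the 61 genes covered in both RIP libraries 0.16, 0.04 and 0.64. Genes of a library share its depth, and the table holds just genes above 0 in 2 or more of its 3 libraries, which shapes these values.

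Most genes covered in both WT RIP libraries were also covered in both ASI1 RIP libraries. Of the 61 genes covered in both WT RIP libraries, 56 are listed in the ASI1 table and 42 (68.9%) were covered in both ASI1 RIP libraries. Of all 4650 WT-listed genes, 2319 are listed in the ASI1 table and 935 (20.1%) were covered in both ASI1 RIP libraries. Genes not listed in the ASI1 table count here as not covered, which lowers the share of all genes more. Among genes listed in both tables, these are 42 of 56 against 935 of 2319. The ASI1 RIP libraries were deeper, so coverage does not compare levels. For AT2G15880 the log2 enrichment in WT minus that in ASI1 was 0.14 (SE 1.06), for LRX3 -1.16 (SE 2.06), for AT4G18670 1.60 (SE 2.54) and for U1.5 1.99 (SE 1.91), all at an adjusted p of 1.00 by edgeR. CA1 lay on opposite sides of the input in the lines: in ASI1 it had 1296 CPM outside rRNA in the input and 60.6 and 196 in the RIP libraries, and the difference was 6.23 (SE 3.52, adjusted p of 1.00 in edgeR). Over 2319 genes in both tables edgeR called 0 genes in either direction (0%), where 2 genes had an unadjusted p under 0.05; DESeq2 likewise made 0 calls, with 23 such genes.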

How the data were processed

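The authors deposited, per genotype, a table of expected counts (estimated read counts) for the input and both RIP libraries, and CPM columns scaled to listed totals, per the file headers. The deposited CPM were only checked against the counts. STAR 2.6.0c, Salmon 0.10.2 and edgeR appear in the submitters' processing notes, with no roles given. Per library 97.4% to 98.9% of WT values were whole multiples of a step near 1 read, within 0.02. A gene is listed only if at least 2 of 3 libraries are above 0.

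Counts were rounded and fitted with edgeR 4.0.16 (quasi-likelihood, R 4.3.3, limma 3.58.1), library sizes being counts outside the 4 rRNA genes, with no low-count filter; DESeq2 1.42.0 was an alternative. The fit was also run on simulated counts, which does not show that it can make calls at the wide spread of these libraries. All 6351 identifiers (100%) matched TAIR10.1. Intervals for ratios are exact and conditional on the summed counts. Tables and plots used Python 3.11.15, matplotlib 3.10.9, scipy 1.17.1, pandas 2.3.3 and numpy 2.4.6. Named genes were the 15 highest in both RIP libraries, the 10 highest in the input, the 6 highest at 0 input, the 6 highest in the input at 0 in a RIP library, the 4 per replicate nearly absent from the other, members of the target, complex, reference and marker lists, and the top 2 per list; others are said to be chosen after their values were seen. A gene that the rule names is not reported here. The members and lists were chosen with earlier results of these data known.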

Additional observations from a re-analysis of the deposited data

How the results depend on the processing

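edgeR made 0 calls in WT RIP over input under all its alternatives, with 3 to 298 genes at an unadjusted p under 0.05. With 1 residual degree of freedom and this spread, 0 calls say nothing about stability. Leaving out a WT RIP replicate gave 0 calls in each direction (lowest 0, highest 0), with the lone RIP library assumed to vary like the other groups. DESeq2 with non-rRNA size factors called 2 higher and 2 lower, and with median-of-ratios size factors 1 higher (AT2G15880, adjusted p = 0.0140). A minimum of 10 counts gave 99 genes covered in both RIP libraries instead of 61. The median log2 fold of -1.39 became -0.51 with median-of-ratios size factors, -0.56 with TMM and 2.81 with all listed counts, where RR3 turned to 2.00 and AT1G15405 to 2.36. This follows from the rRNA share of the input, which all listed counts include. filterByExpr kept 1517 genes, whose median was 0.91. The fitted folds of AT2G15880 (3.36 to 7.84) and U1.5 (3.92 to 8.76) kept their direction under the alternatives run.

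For WT minus ASI1, the replicate block gave 0 calls, as did leaving out any of the 4 RIP libraries (lowest 0, highest 0). Whether equal replicate numbers of WT and ASI1 belong together is not stated. The RIP 1 minus RIP 2 deviations of the lines had r = -0.0239 over 2319 genes. This value cannot decide it, since 1718 of the 4650 genes had no count in WT replicate 1. The single input and 1 residual degree of freedom limit the tests, and replicate 1, with 23304 non-rRNA counts, limits detection.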
